A study of Mus musculus with 22 samples.

Results

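DNA replication and mitosis genes were examined in RNA of sort-purified lung epithelial cells (ECs) from WT, AhR-/- and CYP1B1-/- mice. The 47 genes were chosen by name as parts of the machinery that copies and separates chromosomes, out of 54373 genes listed and 21793 protein-coding genes. They were set beside Ptprc, which encodes the leukocyte surface protein CD45, to ask whether transcripts of dividing cells followed transcripts of leukocytes. AhR is a ligand-activated transcription factor, and CYP1B1 is an enzyme that metabolizes AhR ligands. The 22 libraries formed 6 groups, with 4 WT, 3 AhR-/- and 3 CYP1B1-/- libraries at steady state and 4 libraries of each genotype after house dust mite (HDM) exposure. HDM mice were sensitized once with Dermatophagoides farinae extract, challenged intranasally on 4 consecutive days from 8 days later, and sampled 72 h after the last challenge. WT mice were C57BL/6, both knockouts had been backcrossed to C57BL/6, both sexes were used, and mice were more than 7 weeks old. All cells were live singlets gated as CD45-EpCAM+, so the gate was meant to remove leukocytes. The knockouts lack the gene in the whole animal, and nothing states whether 1 library came from 1 mouse, so p-values measure the spread between these libraries, which may be technical.

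A cell that divides first licenses its replication origins by loading the MCM helicase, then copies its DNA with polymerases held by the PCNA clamp, and needs ribonucleotide reductase and thymidylate enzymes for the deoxynucleotides. In mitosis, cyclin B with CDK1, the Aurora and Polo-like kinases, the kinetochore and the spindle kinesins condense, attach and pull the chromosomes apart. E2F factors switch on the replication genes, and FOXM1 and the MuvB complex the mitotic genes. Most adult lung ECs rest outside the cell cycle and re-enter it after injury, whereas leukocytes of inflamed tissue can divide rapidly.

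The promoters of 6 members from different steps of the cycle are shown, because the members changed together and such genes are known to share a few short promoter elements. The sequences are RefSeq sequence of GRCm38.p6, given on the gene's own strand from 250 bases before to 50 bases after the start. Capitals mark an E2F site (TTTCCCGC or TTTGGCGC), a cell cycle genes homology region or CHR (TTTGAA or TTTAAA), or a CCAAT box, read on both strands. Iqgap3, a scaffold of cytokinesis, is at chr3:88081801-88082100 (+). Pola1, the catalytic subunit of the polymerase that starts new strands, is at chrX:93632106-93632405 (-). E2f8, a repressive E2F factor, is at chr7:48881547-48881846 (-). Mcm7, a subunit of the helicase, is at chr5:138171834-138172133 (-). Plk1, a kinase of mitotic entry and exit, is at chr7:122159185-122159484 (+). Bub1b, a kinase-like protein of the spindle checkpoint, is at chr2:118597961-118598260 (+).
Iqgap3: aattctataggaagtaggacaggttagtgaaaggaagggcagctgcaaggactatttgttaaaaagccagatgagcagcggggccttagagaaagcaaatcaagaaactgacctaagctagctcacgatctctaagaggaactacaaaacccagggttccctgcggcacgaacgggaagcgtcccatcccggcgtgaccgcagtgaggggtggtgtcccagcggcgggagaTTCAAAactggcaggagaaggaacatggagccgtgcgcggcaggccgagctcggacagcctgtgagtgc
Pola1: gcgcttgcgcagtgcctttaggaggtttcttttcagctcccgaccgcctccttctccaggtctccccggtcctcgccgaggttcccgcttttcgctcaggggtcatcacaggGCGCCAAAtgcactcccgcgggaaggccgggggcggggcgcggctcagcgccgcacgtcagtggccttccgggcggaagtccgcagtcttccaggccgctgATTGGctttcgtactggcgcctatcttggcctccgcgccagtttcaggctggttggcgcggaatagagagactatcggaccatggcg
E2f8: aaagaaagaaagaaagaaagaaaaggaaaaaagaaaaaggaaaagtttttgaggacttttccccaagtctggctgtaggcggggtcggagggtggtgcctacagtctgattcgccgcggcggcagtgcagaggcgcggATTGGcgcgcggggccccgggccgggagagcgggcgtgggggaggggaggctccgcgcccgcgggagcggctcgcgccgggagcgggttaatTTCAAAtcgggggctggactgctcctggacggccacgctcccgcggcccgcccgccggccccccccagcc
Mcm7: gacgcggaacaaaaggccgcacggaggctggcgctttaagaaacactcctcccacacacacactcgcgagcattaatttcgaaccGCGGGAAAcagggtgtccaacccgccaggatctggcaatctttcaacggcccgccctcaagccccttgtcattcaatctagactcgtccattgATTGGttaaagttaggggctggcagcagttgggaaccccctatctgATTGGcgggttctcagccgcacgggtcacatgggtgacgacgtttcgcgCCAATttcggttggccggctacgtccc
Plk1: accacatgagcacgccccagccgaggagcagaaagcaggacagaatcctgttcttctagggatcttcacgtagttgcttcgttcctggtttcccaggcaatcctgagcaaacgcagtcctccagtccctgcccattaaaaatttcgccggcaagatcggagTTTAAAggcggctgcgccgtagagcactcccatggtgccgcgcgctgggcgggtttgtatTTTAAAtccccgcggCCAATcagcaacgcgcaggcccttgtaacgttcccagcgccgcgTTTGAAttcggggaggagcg
Bub1b: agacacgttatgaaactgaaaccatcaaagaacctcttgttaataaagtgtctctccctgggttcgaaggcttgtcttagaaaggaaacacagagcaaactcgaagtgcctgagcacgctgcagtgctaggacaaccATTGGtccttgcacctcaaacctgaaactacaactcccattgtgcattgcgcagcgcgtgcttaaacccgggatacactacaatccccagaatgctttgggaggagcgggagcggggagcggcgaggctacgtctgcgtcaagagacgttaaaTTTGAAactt

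RefSeq promoters were matched for 38 of the 47 members. A CHR was present in 26 of the 38 (68.4%) and in 27.8% of all 27025 promoters of this length. A CCAAT box was present in 71.1% of the members' promoters and in 37.9% of all promoters, and both elements together in 52.6% and 10.9%. An E2F site of these letters was present in 6 members' promoters (15.8%) and in 1.63% of all promoters, and all 6 belonged to replication genes (Cdc6, Mcm3, Mcm5, Mcm6, Mcm7 and Pola1). The elements do not overlap in their letters, these are matches of letters only, and no binding was measured. The promoters of Ccne2, Ccna2, Foxm1, Mcm4, Gins2, Pole, Aurkb, Tpx2 and Kif20a were not analysed here.

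Total counts per library ranged from 9654825 to 17878442. A predicted gene, Gm10800, took 0.00819% to 71.9% of total counts in HDM libraries and 9.54% to 29.2% at steady state, so depth outside it differed widely. In AhR-/- HDM replicate 3, the shallowest library, 3 counts were worth 1.37 CPM (counts normalized to library size), and 19 members had 3 counts or fewer. Gm10800 took over 62% in the HDM libraries AhR-/- 3 and 4, CYP1B1-/- 1 and 2 and WT 2. These 5 included the lowest member levels of each genotype, and the part of this share in the results was not tested. Ptprc was present despite the gate, at 14.8 to 669 CPM after HDM and 2.03 to 52.6 CPM at steady state. Epcam, which encodes the sorted epithelial marker, was at 68.2 to 312 CPM and 86.2 to 287 CPM. The targeted genes were not lower in the libraries labelled for them. After HDM, Ahr was at 12.8 to 25.5 CPM in the libraries labelled AhR-/- and 9.62 to 20.1 CPM in WT, and Cyp1b1 was at 4.98 to 13.5 CPM in those labelled CYP1B1-/- and 0.897 to 2.31 CPM in WT. Counts over a whole gene need not show the loss of a part of it, so the genotypes rest on the labels. Reads of Ddx3y and Eif2s3y, which lie on the Y chromosome, were abundant in all 10 steady-state libraries (Ddx3y 19.7 to 99.8 CPM). Among HDM libraries they were abundant in AhR-/- replicates 3 and 4 (Ddx3y 67.3 and 69.6 CPM) and nearly absent in the other 10 (at most 0.0859 CPM of Ddx3y and 0.108 CPM of Eif2s3y).

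At steady state the replication and mitosis transcripts were low in the 3 genotypes, and after HDM they were high in WT, low in the libraries labelled AhR-/-, and spread over nearly the whole range in those labelled CYP1B1-/-. Summed over the 47 members, CPM was 165 to 201 in all 10 steady-state libraries. After HDM the sums were 1782, 826, 2589 and 2053 in WT replicates 1 to 4. In the libraries labelled AhR-/- they were 589, 528, 158 and 208, below every WT library, and replicate 3 lay below all steady-state libraries. In the libraries labelled CYP1B1-/- they were 904, 310, 2837 and 2012, which overlapped both other genotypes. Ptprc was at 436, 209, 638 and 365 CPM in WT, 161, 99.2, 27.8 and 14.8 CPM in AhR-/- and 179, 26.2, 614 and 669 CPM in CYP1B1-/- libraries, in the same order of replicates. Within AhR-/- and within CYP1B1-/- libraries, high and low Ptprc went largely with high and low member sums. In RNA of sorted cells, fewer dividing cells and less of these transcripts per cell cannot be told apart.

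**Figure D1:**
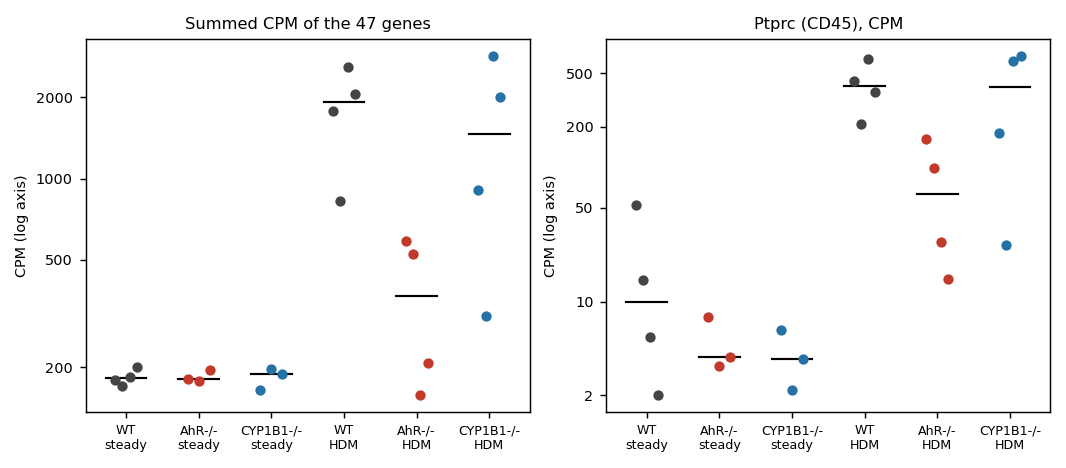
Summed CPM of the 47 replication and mitosis genes (left) and CPM of Ptprc (right), on log axes, with 1 point per library, groups on the horizontal axis and a line at the group's median. The 4 AhR-/- HDM libraries, at 158 to 589 summed CPM, sit below the 4 WT HDM libraries, at 826 to 2589, and all steady-state libraries lie at 165 to 201.

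The order of the members also differed between states. Per kb of exon, the highest mean levels in WT at steady state were those of E2f1, the founding E2F activator (8.48 CPM per kb), Mcm4, a helicase subunit (6.56), Pcna, the polymerase clamp (3.82), and Rrm1, the large subunit of ribonucleotide reductase (2.51). All 4 have roles at the start of or during DNA synthesis. The lowest was Ccnb1, a mitotic cyclin (0.0723 CPM per kb). Of its 50-base words 23.4% also occur in other genes, the largest share of all members, so that its values are less certain here and below. In WT after HDM the highest were Ccnb2, another mitotic cyclin (33.2 CPM per kb), Rrm2, the small reductase subunit (31.7), Mcm6 (27.7), Mcm3 (21.5) and Mcm4 (20.3). Pole, the leading-strand polymerase, was lowest there (0.735 CPM per kb). In AhR-/- after HDM, Mcm4 (7.50 CPM per kb) and Pcna (7.46) came first and Iqgap3 last (0.142). Neighbours in these orders were not tested against each other.

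**Figure D2:**
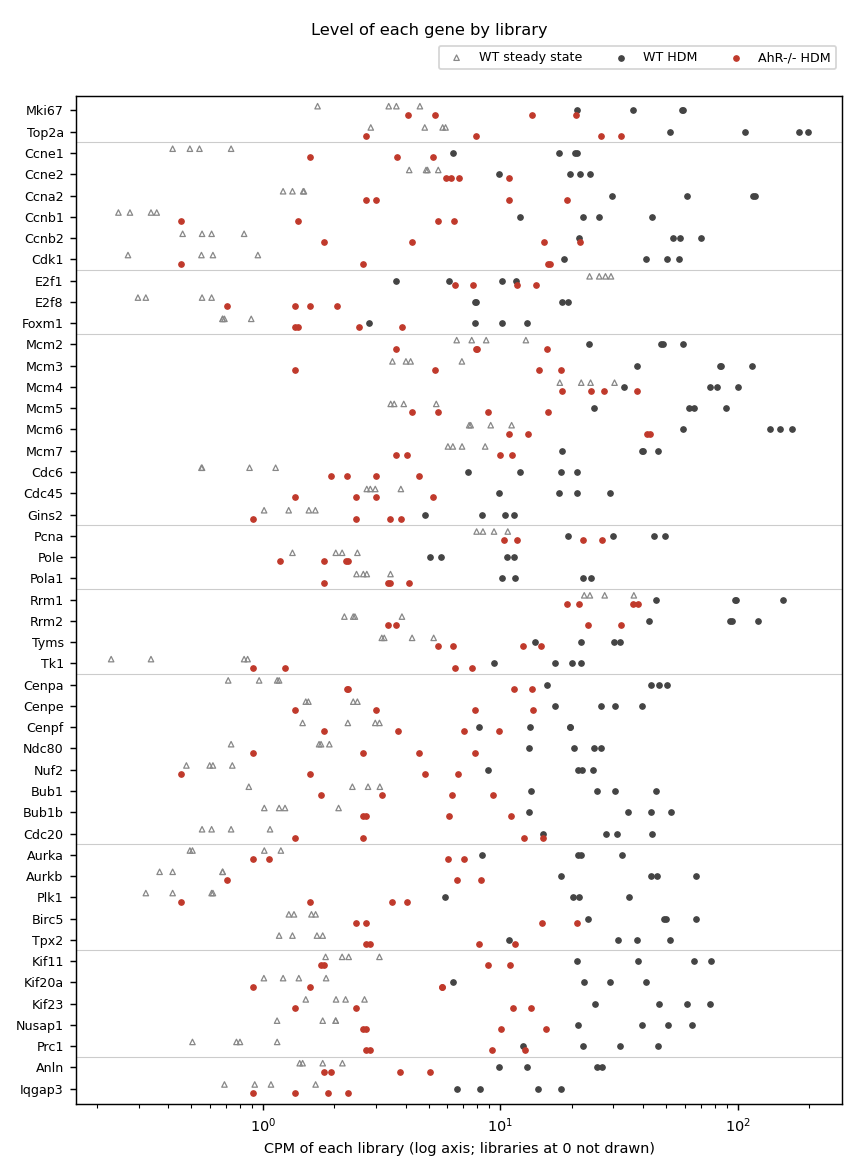
CPM of each member (rows, grouped by role) in every WT steady-state (open triangles), WT HDM (dark points) and AhR-/- HDM library (red points), on a log axis, with libraries at 0 left out. Red points lie left of all dark points for 37 of the 47 genes, and E2f1 is the gene whose triangles all lie to the right of its points.

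The first comparison asked how the loss of AhR changed these transcripts after HDM. In libraries labelled AhR-/-, 45 of the 47 members were lower than in WT and none was higher, with a threshold of 0.05 on the adjusted p (edgeR's quasi-likelihood test, 4 libraries per group). Of all 14161 genes tested, 22.1% passed this threshold, 12.9% with lower and 9.22% with higher values. The median log2 fold change of the members was -2.31, beside 0.00 for all genes tested. Every AhR-/- library lay below every WT library for 37 members, which held for 9.91% of all genes. The 10 members that overlapped were Ccne2, Ccnb2, E2f1, Foxm1, Mcm4, Pcna, Tyms, Cenpf, Tpx2 and Prc1. The count of 45 did not withstand the loss of single libraries. It was 0 without AhR-/- HDM replicate 1, 3 or 4 or WT HDM replicate 3 or 4, and 20 without WT HDM replicate 1 (6.13% of all genes), while the number with an unadjusted p under 0.05 was 45 to 46, beside 27.7% to 41.8% of all genes, and the median -2.65 to -2.12. With all libraries that number was 46, beside 38.8% of all genes (21.4% lower). Without AhR-/- replicates 3 and 4, the libraries with Y-linked reads, no gene of the whole table passed. Of the members 38 then had an unadjusted p under 0.05, beside 19.9% of all genes (9.6% lower), and the median of the members was -1.80.

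The proliferation marker Mki67, a coat protein of mitotic chromosomes, was at 36.4, 21.1, 58.7 and 58.3 CPM in WT HDM libraries and at 20.9, 13.7, 4.10 and 5.30 CPM in AhR-/- HDM libraries. The groups touched but did not overlap, and AhR-/- replicates 3 and 4 were near the steady-state WT levels of 1.70 to 4.59 CPM. Its log2 fold change was -1.97 (SE 0.54, adjusted p = 0.0302, edgeR's quasi-likelihood test). Top2a, the topoisomerase that untangles sister chromosomes, was at 108, 52.0, 197 and 182 CPM in WT and 32.4, 26.6, 2.73 and 7.95 CPM in AhR-/-. All 4 AhR-/- libraries were below the lowest WT library, with a log2 fold change of -2.94 (SE 0.79, adjusted p = 0.0289).

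All 5 cyclins and Cdk1, the kinase that B cyclins activate, fell, by log2 fold changes of -3.14 to -1.32. Ccna2, the cyclin of S phase and early mitosis, had the largest change of this group (-3.14, SE 0.76, adjusted p = 0.0261). Ccnb2 was at 57.3, 21.6, 70.5 and 53.7 CPM in WT and 21.7, 15.3, 1.82 and 4.24 CPM in AhR-/- libraries. AhR-/- replicate 1 was just above WT replicate 2, so the groups overlapped in that pair, and the log2 fold change was -2.17 (SE 0.63, adjusted p = 0.0341). Cdk1 itself, which drives mitotic entry, was at 50.6, 18.5, 56.8 and 41.0 CPM in WT and 15.8, 16.2, 0.455 and 2.65 CPM in AhR-/-, and the value in AhR-/- replicate 3 was within 3 counts. The groups did not overlap. Ccne2, an E cyclin that acts at the entry into S phase, had the smallest change (-1.32, SE 0.42, adjusted p = 0.0424).

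The 3 transcription factors did not move alike. E2f8 was at 7.89, 7.87, 19.3 and 18.1 CPM in WT and at 1.58, 2.06, 1.37 and 0.707 CPM in AhR-/-, with a clear gap between the groups and a log2 fold change of -3.19 (SE 0.65, adjusted p = 0.0261). Foxm1 was at 7.80, 2.79, 12.9 and 10.2 CPM in WT and 2.54, 3.86, 1.37 and 1.41 CPM in AhR-/-. AhR-/- replicate 2 exceeded WT replicate 2, and the log2 fold change was -1.79 (SE 0.47, adjusted p = 0.0278). E2f1 was at 11.7, 6.09, 10.2 and 3.65 CPM in WT and 7.70, 6.44, 11.8 and 14.1 CPM in AhR-/-. These ranges overlapped, the log2 fold change was 0.37 (SE 0.33, adjusted p = 0.432), and its sign was negative without AhR-/- replicates 3 and 4 (-0.16).

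All 9 origin licensing and helicase genes fell, by -2.97 to -1.42. Mcm6 was at 137, 58.9, 169 and 151 CPM in WT and 42.9, 41.7, 10.9 and 13.1 CPM in AhR-/- libraries. No AhR-/- library reached WT, and the log2 fold change was -2.24 (SE 0.56, adjusted p = 0.0268). Mcm4 was at 76.8, 33.2, 100 and 81.7 CPM in WT and at 37.8, 27.4, 18.2 and 24.2 CPM in AhR-/-. AhR-/- replicate 1 was above WT replicate 2, and the change was the smallest of this group (-1.42, SE 0.45, adjusted p = 0.0433). For Mcm7, whose promoter holds an E2F site and 3 CCAAT boxes, the log2 fold change was -2.25 (SE 0.48, adjusted p = 0.0261), with 18.1% of its 50-base words also found in other genes, so that its counts are less certain. Exons of Gins2, a helicase cofactor, overlapped the opposite-strand gene Gse1 over 67.3% of their length, and reads of the pair cannot be told apart where strand was not used.

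Both polymerase genes fell and the clamp did not pass. Pola1 was at 11.6, 10.2, 24.04 and 22.4 CPM in WT and at 4.12, 3.44, 1.82 and 3.36 CPM in AhR-/-, with no overlap and a log2 fold change of -2.38 (SE 0.45, adjusted p = 0.0261). Pole was at 5.65, 5.08, 10.7 and 11.4 CPM in WT and at 1.18, 2.23, 1.82 and 2.30 CPM in AhR-/-, again with no overlap (log2 fold change -2.19, SE 0.42, adjusted p = 0.0261). In contrast to most members, the AhR-/- values of Pole were not lowest in replicates 3 and 4. Pcna was at 44.4, 19.3, 49.6 and 29.9 CPM in WT and at 26.9, 22.4, 11.8 and 10.4 CPM in AhR-/-. AhR-/- replicates 1 and 2 exceeded WT replicate 2, and the log2 fold change was -0.96 (SE 0.41, adjusted p = 0.103). Of its 50-base words 19.1% also occur in other genes.

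The 4 nucleotide supply genes fell by -2.45 to -1.27. Rrm2 was at 93.0, 42.4, 122 and 94.5 CPM in WT and at 32.4, 23.4, 3.64 and 3.36 CPM in AhR-/- libraries. The AhR-/- group itself split into a higher and a lower pair, both below WT, and the log2 fold change was -2.45 (SE 0.79, adjusted p = 0.0440). Rrm1 changed by -1.76 (SE 0.47, adjusted p = 0.0293). Tyms, which makes thymidylate, had the smallest change of this group (-1.27, SE 0.39, adjusted p = 0.0389), and Tk1, which salvages thymidine, changed by -1.93 (SE 0.56, adjusted p = 0.0338).

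All 20 members of the mitotic groups fell. The 8 kinetochore and checkpoint genes changed by -2.59 to -1.38, with Bub1b at -2.59 (SE 0.63, adjusted p = 0.0261) and Cdc20, the activator of the anaphase-promoting complex, at -1.80 (SE 0.56, adjusted p = 0.0404). The 5 mitotic kinases and passenger genes changed by -3.29 to -2.14. Aurkb, the kinase of the chromosomal passenger complex, was at 45.7, 18.01, 67.0 and 43.3 CPM in WT and at 8.28, 6.61, 0 and 0.707 CPM in AhR-/-. Its log2 fold change was the largest of all members (-3.29, SE 0.82, adjusted p = 0.0267), and 0 counts in AhR-/- replicate 3 still allow 1.37 CPM. Birc5, the survivin subunit of the same complex, changed by -2.14 (SE 0.65, adjusted p = 0.0391).

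The 5 spindle genes changed by -3.02 to -1.96. Kif11, the motor that separates the spindle poles, was at 38.3, 21.1, 77.5 and 65.3 CPM in WT and at 10.96, 8.93, 1.82 and 1.77 CPM in AhR-/- (log2 fold change -3.02, SE 0.76, adjusted p = 0.0268). Nusap1, a microtubule-binding spindle protein, changed by -2.44 (SE 0.67, adjusted p = 0.0308). Anln, an actin-binding protein of the cleavage furrow, was at 13.0, 9.90, 26.8 and 25.6 CPM in WT and at 3.80, 5.07, 1.82 and 1.94 CPM in AhR-/- (log2 fold change -2.51, SE 0.52, adjusted p = 0.0261). Iqgap3 was at 8.21, 6.597, 18.1 and 14.4 CPM in WT and at 1.36, 1.89, 0.910 and 2.30 CPM in AhR-/-. All 3 genes were separated between the genotypes, and for Iqgap3 every AhR-/- library was within the range of the steady-state libraries (0.659 to 2.41 CPM). Its log2 fold change was -2.84 (SE 0.49, adjusted p = 0.0261), with the lowest p of all members.

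The comparison of libraries labelled CYP1B1-/- with WT after HDM used the same WT libraries. No member passed, and none had an unadjusted p under 0.05 (edgeR's quasi-likelihood test). The background was 0% of genes at the adjusted and 1.65% at the unadjusted threshold (0.36% lower and 1.29% higher). The members' median log2 fold change was -0.26, with a range of -0.56 to 0.04. No member was separated between the groups, beside 0.198% of all genes with lower and 0.424% with higher values in every CYP1B1-/- library. With single libraries left out the median was -0.66 (without CYP1B1-/- replicate 3) to 0.04 (without CYP1B1-/- replicate 2). For Mki67 the CYP1B1-/- libraries were at 22.7, 10.95, 66.6 and 47.8 CPM. Replicates 3 and 4 were in or above the WT range and replicate 2 below it, so the spread within this group was wide. This p does not show that the 2 genotypes were alike.

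Between AhR-/- and CYP1B1-/- libraries after HDM, no member passed in edgeR's quasi-likelihood test, beside 0.00706% of all genes, although 45 had an unadjusted p under 0.05 (29.9% of all genes) and the median was -2.05. The likelihood ratio test called 43 members (17.4% of all genes), DESeq2 44 (20.5%) and limma voom 31 (26.4%). Without CYP1B1-/- replicate 2 the quasi-likelihood count was 44 (20.7% of all genes) and without AhR-/- replicate 2 it was 25 (18.8%). The AhR-/- libraries lay below all CYP1B1-/- libraries for 4 members, Pole, Pola1, Iqgap3 and Kif20a, a kinesin of the cleavage site, beside 1.63% of all genes. Exons of Kif20a overlap the opposite-strand gene Cdc23 over 29.3% of their length. CYP1B1-/- values for Iqgap3 were 6.85, 3.17, 19.1 and 12.2 CPM.

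HDM libraries differed from steady-state libraries in the same genes, but state and sequencing run cannot be told apart, since the tables were named as run 1 (steady state) and run 2 (HDM). In WT and CYP1B1-/- libraries, Y-linked reads also went with state. In AhR-/- libraries the members' summed level after HDM was 158 and 208 CPM in the 2 with these reads and 589 and 528 CPM in the 2 without, beside 178 to 196 CPM at steady state. Ccne1, Ccnb1, E2f8 and Plk1 were too low for a test among steady-state libraries alone and entered the fit of all 22 libraries through the HDM libraries, where they are high, so the counts and medians of state differences are given for the other 43 members. In WT, 42 of them were higher after HDM and 1 was lower (edgeR's quasi-likelihood test), beside 38.4% of all 16639 genes (19% higher and 19.4% lower). All 43 were separated, 42 with higher values (17.7% of all genes), and the median log2 difference was 3.88, beside -0.11 for all genes. The largest differences were in the cyclins and the CDK (median 5.99) and the mitotic kinases (median 4.86), and smaller ones in the helicase genes (median 2.67) and polymerases with the clamp (median 2.04). Ccnb2 was at 0.460 to 0.835 CPM in WT at steady state, far below its HDM values, with a log2 difference of 6.36 (SE 0.73, adjusted p = 6.5e-06). The other lowest p-values were those of Prc1, which bundles spindle midzone microtubules (5.13, SE 0.62), Cdc20 (5.29, SE 0.65) and Tk1 (4.92, SE 0.61).

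E2f1 went the other way in every genotype. In WT it was at 23.8, 27.8, 26.1 and 29.3 CPM at steady state and at 3.65 to 11.7 CPM after HDM. It was lower in all HDM libraries than in all steady-state libraries of the same genotype. The log2 differences were -1.75 (SE 0.31, adjusted p = 9.68e-05) in WT, -1.49 (SE 0.32, adjusted p = 0.00335) in AhR-/- and -2.19 (SE 0.33, adjusted p = 3.78e-05) in CYP1B1-/- (edgeR's quasi-likelihood test).

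In CYP1B1-/- libraries 41 of the 43 members were higher after HDM and 1 lower, beside 33.4% of genes called, with a median of 3.92. Mcm4 did not pass there (1.14, SE 0.46, adjusted p = 0.0634, edgeR's quasi-likelihood test). The lowest p-values were those of Ccnb2 (6.15), Tk1 (4.98), Anln (3.68), Cdc20 (5.07) and Tyms (3.03). The groups were separated for 36 members with higher values, beside 14.2% of all genes. In AhR-/- libraries 23 of the 43 were higher and 1 lower, beside 20.6% of genes called, with a median of 1.84, and 17 were separated with higher values (12.7% of all genes). Prc1 (3.47, SE 0.67), Ccnb2 (3.84, SE 0.74), Cdk1 (3.93, SE 0.82) and Cdc20 (3.18, SE 0.68) had the lowest p-values among those higher. Of 9 helicase genes, only Mcm6 (1.88, SE 0.55) and Cdc6, the loader of the helicase (2.52, SE 0.65), passed, and none of the 3 polymerase and clamp genes did. Mcm7 was at 10.0, 11.3, 3.64 and 4.07 CPM in AhR-/- HDM and at 7.01 to 8.74 CPM in AhR-/- steady-state libraries. The HDM values lay on both sides of the steady-state values. The log2 difference of Mcm7 was 0.00 (SE 0.45), that of Mcm2 -0.09 (SE 0.51), that of Mcm4 0.05 (SE 0.45) and that of Rrm1 -0.06 (SE 0.48). Counts with libraries left out were made over all 47 members. They include Ccne1, Ccnb1, E2f8 and Plk1, which entered the fit through the HDM libraries, so they are not comparable with counts of the 43. Over all 47, the called members numbered 28, and 17 without AhR-/- HDM replicate 1 (12.6% of all genes). They numbered 18, 12 and 12 without AhR-/- steady state replicates 1, 3 and 4 (12.5%, 9.98% and 8.93%), and 37 without AhR-/- HDM replicates 3 and 4 (23.6%).

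Whether the AhR-/- difference itself depended on state was tested as an interaction. No member passed (lowest adjusted p = 0.149, reached by several members at once, among them Pola1, Pole and Mcm7 with the lowest unadjusted p, edgeR's quasi-likelihood test), and neither did any other gene (0%). The interaction had an unadjusted p under 0.05 for 34 of the 43 members, beside 18.3% of all genes, with a median of -2.20. Counts under other settings were made over all 47 members. They include Ccne1, Ccnb1, E2f8 and Plk1, which entered the fit through the HDM libraries, so they are not comparable with counts of the 43. DESeq2 called 26 members (7.43% of all genes), the likelihood ratio test 7 (1.33%) and limma voom 45 (28.1%). The quasi-likelihood test called 8 without AhR-/- HDM replicate 2 (6.14%) and 11 without CYP1B1-/- HDM replicate 2 (2.3%). For CYP1B1-/-, the interaction was called for no member (background 0%) and had no member at an unadjusted p under 0.05 (2.3% of all genes). At steady state itself, 43 members could be tested (Ccne1, Ccnb1, E2f8 and Plk1 were too low), and none passed between any 2 genotypes. Background shares were 0% for AhR-/- against WT, 0.0129% for CYP1B1-/- against WT and 0.00643% for AhR-/- against CYP1B1-/-. An unadjusted p under 0.05 was found for 1 member in AhR-/- against WT, where it was found for 1.69% of genes (1.16% lower, 0.527% higher). In CYP1B1-/- against WT it was found for 1 member and 5.8% of genes (3.48% lower, 2.32% higher), and in AhR-/- against CYP1B1-/- for 3 members and 4.23% of genes. The members' medians were -0.11, -0.21 and 0.10.

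**Figure D3:**
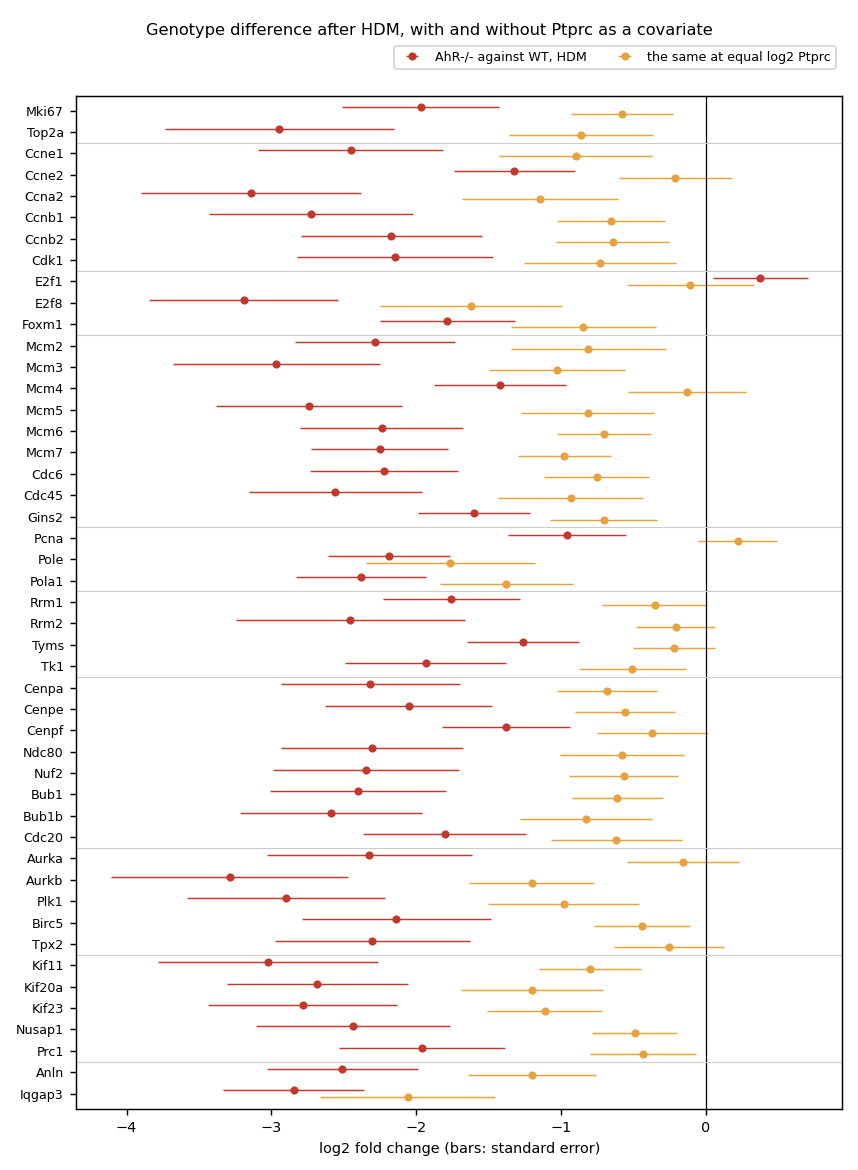
Log2 fold change of each member (rows, grouped by role) in AhR-/- against WT HDM libraries, from the fit on genotype alone (red) and with log2 CPM of Ptprc added (orange), with bars of 1 standard error. The median moves from -2.31 to -0.70, Iqgap3 and Pole stay farthest to the left with Ptprc in the fit, and Pcna moves to 0.22.

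To ask whether these transcripts followed leukocyte transcripts, the slope of each gene on log2 CPM of Ptprc was fitted among libraries of the same genotype. After HDM, 43 of the 47 members had a positive slope past the threshold and none a negative one (edgeR's quasi-likelihood test), beside 13.1% of all genes, 11.4% with positive slopes. The median slope was 0.61 log2 units per doubling of Ptprc, beside 0.01 for all genes. The hematopoietic marker list followed Ptprc in 22 of 23 genes, with a median slope of 0.83. Rrm2 had the steepest slope of the members (0.95, SE 0.08, adjusted p = 1.52e-05), and Nusap1 (0.79), Kif11 (0.90), Bub1, a checkpoint kinase (0.72), and Ccnb1 (0.85) came next by p. The 5 mitotic kinases and passenger genes had slopes of 0.72 to 0.91 and the 9 helicase genes of 0.34 to 0.74. The 4 members that did not pass were E2f1 (-0.15, SE 0.10), Foxm1 (0.36, SE 0.13, adjusted p = 0.0774), Pole (0.15, SE 0.14) and Iqgap3 (0.28, SE 0.14). The count fell to 27 (4.85% of all genes) without CYP1B1-/- HDM replicate 2, the library of that genotype with the lowest Ptprc, and was 44 (13.7%) without AhR-/- replicates 3 and 4.

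Across the 12 HDM libraries, correlations with Ptprc on the log2 scale were computed for 14160 genes. The members' median Pearson r was 0.934 (range -0.554 to 0.990), and it was 0.955 without the 2 libraries farthest from the median of Ptprc, AhR-/- replicate 4 and CYP1B1-/- replicate 2. For 46 members the permutation p of r, adjusted over all genes, was at most 0.05, beside 42.4% of genes. These libraries hold the genotype difference as well as its spread. For Rrm2, r was 0.990 (permutation p = 1e-05, the smallest that 100000 resamples can give, adjusted p = 0.000354) and Spearman's rho 0.944 (permutation p = 3e-05, adjusted p = 0.00176), and r was 0.987 without those 2 libraries. For Mki67, r was 0.944 (permutation p = 1e-05, adjusted p = 0.000354), rho 0.902 (permutation p = 0.0002, adjusted p = 0.00324), and r without the 2 libraries 0.967. E2f1 was the member without a positive relation (r -0.554, permutation p = 0.0632, adjusted p = 0.118, rho -0.315, permutation p = 0.321, adjusted p = 0.426, and r -0.495 without the 2 libraries).

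**Figure D4:**
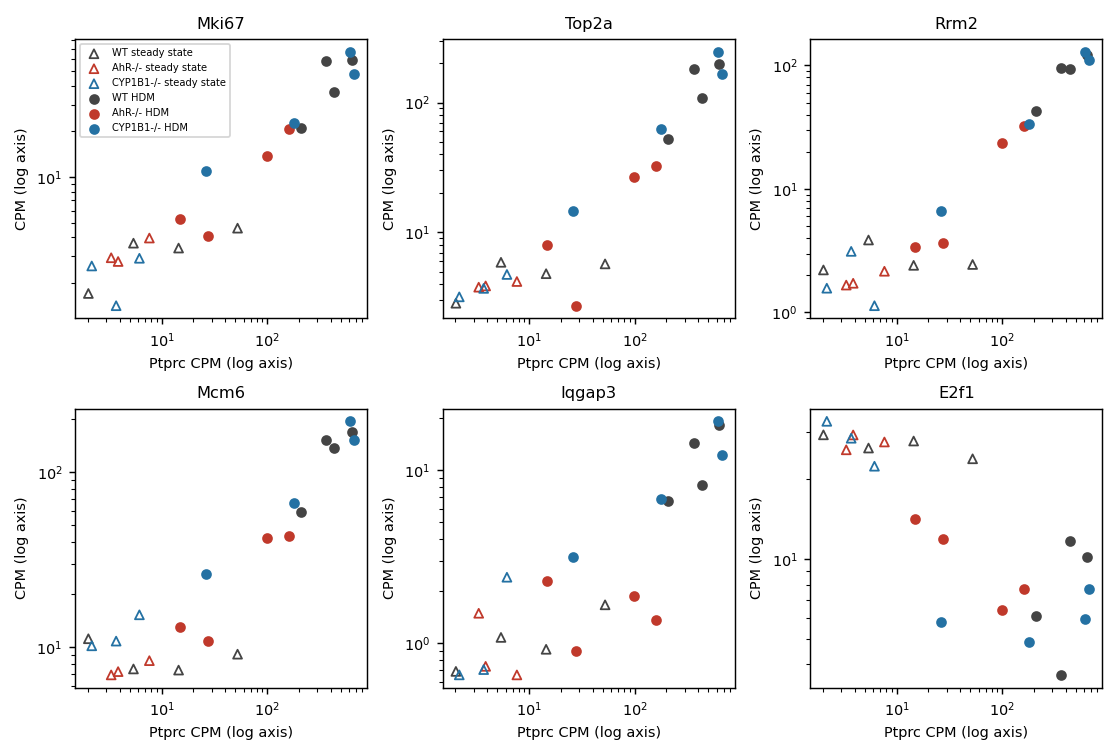
CPM of 6 members against CPM of Ptprc, both on log axes, with 1 symbol per library (triangles for steady state, points for HDM, colours for genotype). After HDM, Mki67, Top2a, Rrm2 and Mcm6 rise along Ptprc from the libraries of lowest Ptprc to those of highest, Iqgap3 lies lower in the 4 AhR-/- libraries than in the other HDM libraries, and E2f1 does not rise.

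At steady state no member passed the threshold for following Ptprc. Of the 43 tested none was called (edgeR's quasi-likelihood test), beside 1.25% of all genes, and 10 had an unadjusted p under 0.05, beside 12.3% of all genes. Of these 10, 8 had positive slopes, beside 9.28% of all genes, and 2 negative ones, beside 2.98%. Positive slopes of this kind were those of Mki67 (0.28), Top2a (0.21), Pole (0.25), Tk1 (0.36), Cenpe, a kinetochore motor (0.29), Cenpf (0.25), Ndc80, the microtubule anchor of the kinetochore (0.25), and Bub1b (0.25), and negative ones those of Mcm2 (-0.13) and Mcm3 (-0.17). Their number was 3 to 14 with single libraries left out, the 3 without WT replicate 4 (4.7% of all genes) and the 14 without WT replicate 3 (14.1%). In the same fit 16 of 21 hematopoietic markers followed Ptprc, with a median slope of 0.92, beside 0.17 for the members. Without WT replicate 1, the library with the most Ptprc, no gene was called, these markers included. Ptprc was at 52.6, 14.5, 5.42 and 2.03 CPM in the WT steady-state libraries, and the mean log2 CPM of the members was 1.13, 1.00, 1.06 and 0.81 there. In AhR-/- replicates 1, 3 and 4 this mean was 1.07, 0.78 and 0.84 with Ptprc at 7.67, 3.33 and 3.88 CPM, and in CYP1B1-/- replicates 2, 3 and 4 it was 1.07, 0.86 and 0.78 with Ptprc at 6.17, 2.18 and 3.71 CPM. In each genotype this mean was highest in the library with the most Ptprc, but the summed CPM of the members was not. The sum was highest in WT replicate 4 (200.5 CPM), AhR-/- replicate 4 (196.1 CPM) and CYP1B1-/- replicate 3 (197.1 CPM). In CYP1B1-/- it was lowest in replicate 2 (164.8 CPM), the library of that genotype with the most Ptprc. The slopes in the 2 states were not tested against each other. Correlation across the 10 steady-state libraries gave a median r of 0.440, beside -0.0113 for all genes, and no member at an adjusted permutation p of at most 0.05, beside 1.4% of 15546 genes. The median was 0.390 without WT replicates 1 and 2.

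**Figure D5:**
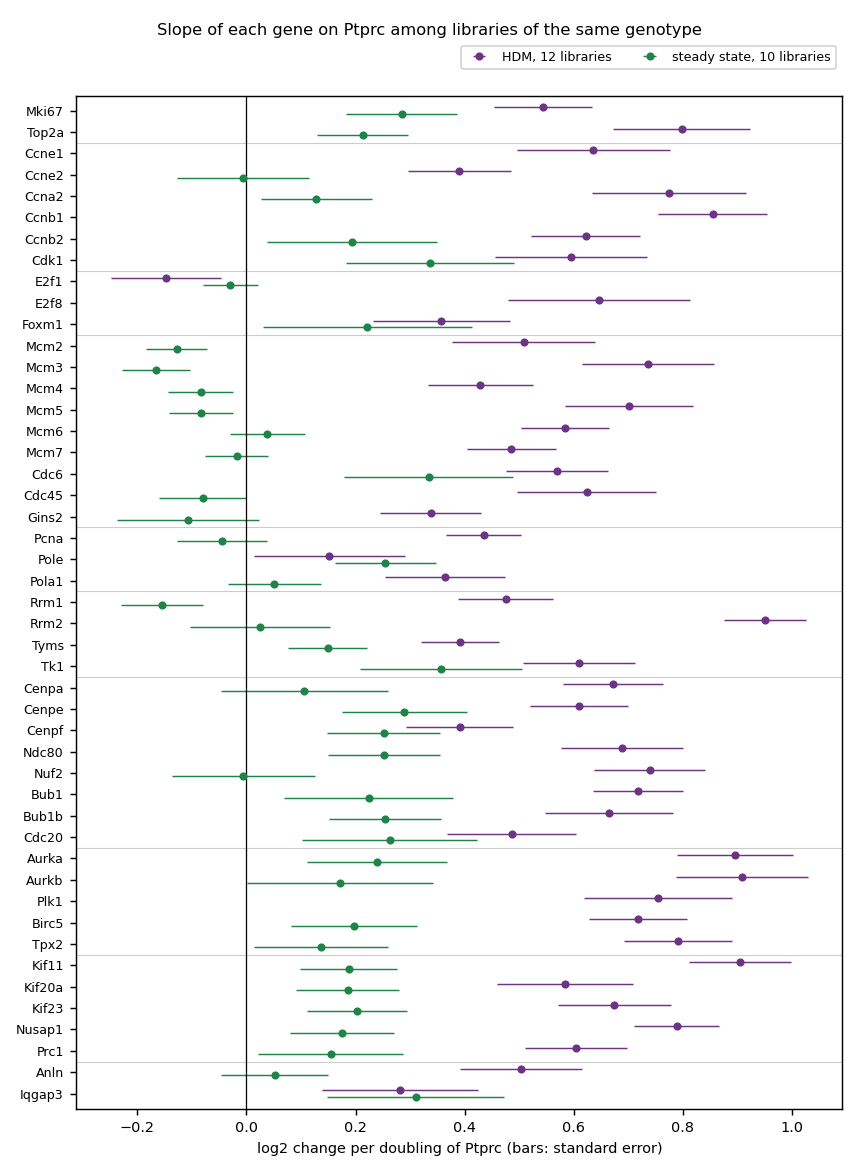
Slope of each member (rows, grouped by role) on log2 CPM of Ptprc among libraries of the same genotype, in log2 units per doubling of Ptprc, after HDM (purple, 12 libraries) and at steady state (green, 10 libraries), with bars of 1 standard error. Purple slopes have a median of 0.61 and green ones of 0.17, and E2f1, Pole and Iqgap3 are the genes whose purple slope is not the higher one.

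With Ptprc in the fit, no gene differed between AhR-/- and WT HDM libraries at an adjusted p of at most 0.05 (0% of 14160). Of the members 12 had an unadjusted p under 0.05, all lower in AhR-/-, beside 9.98% of all genes, 3.9% with lower and 6.08% with higher values. The members' median was -0.70, beside 0.02 for all genes, and 46 of the 47 values were negative. Iqgap3 had the largest remaining difference (-2.06, SE 0.60, adjusted p = 0.497, edgeR's quasi-likelihood test), followed by Pole (-1.76, SE 0.58), E2f8 (-1.62, SE 0.63) and Pola1 (-1.38, SE 0.46). Those of Rrm2 (-0.21, SE 0.27), Tyms (-0.22, SE 0.28), Aurka (-0.16, SE 0.39), another Aurora kinase, and Mcm4 (-0.13, SE 0.41) were small, and Pcna was 0.22 (SE 0.27). Ptprc itself was lower in AhR-/- without overlap (-2.44, SE 0.83, adjusted p = 0.0519), so genotype and Ptprc share much of their variation and the fit separates them poorly. The number with an unadjusted p under 0.05 was 1 to 19 with single libraries left out, beside 1.86% to 22.7% of all genes.

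Libraries of different genotype but like Ptprc were set side by side as a description. AhR-/- HDM replicate 1 (Ptprc 161 CPM) and CYP1B1-/- HDM replicate 1 (179 CPM) gave lower values in the AhR-/- library for 42 of 47 members, with a median ratio of 0.644. The ratio was 0.156 for Pole, 0.199 for Iqgap3, 0.967 for Rrm2 and 1.21 for Pcna. AhR-/- replicate 3 (27.8 CPM) and CYP1B1-/- replicate 2 (26.2 CPM) gave 41 lower members and a median ratio of 0.395. Epcam was also lower in that AhR-/- library (68.2 against 144 CPM, a ratio of 0.473), where 19 members had 3 counts or fewer. The 2 other pairs, AhR-/- 2 with CYP1B1-/- 1 and AhR-/- 4 with CYP1B1-/- 2, gave 44 and 38 lower members and median ratios of 0.567 and 0.585, but there Ptprc was also lower in the AhR-/- library.

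Epcam, the other sorting marker, was followed after HDM by 1 member, Cdk1 (slope 1.92, adjusted p = 0.0424, edgeR's quasi-likelihood test), beside 3% of all genes (1.86% with positive slopes), although 37 had an unadjusted p under 0.05 (23% of genes, 14.7% with positive and 8.34% with negative slopes) and the median slope was 1.30. This count varied with the test, at 24 with the likelihood ratio test (9.6% of all genes), 24 with DESeq2 (12.7%), 28 without a filter on low counts (4.29%) and 0 to 21 with single libraries left out, the 21 without CYP1B1-/- HDM replicate 4 (5.47%). Across the 12 libraries the median r with Epcam was 0.822, and it was 0.525 without AhR-/- replicates 3 and 4, the libraries farthest from the median, beside 0.0538 for all genes over the 12 libraries. With all 12, 45 members had an adjusted permutation p of at most 0.05 with Epcam, beside 34.7% of all genes. At steady state 1 member passed, Ccne2, with a negative slope (-1.41, adjusted p = 0.00743), beside 16.8% of genes.

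Markers of other cell types were counted in the same libraries. The hematopoietic list fell in 14 of 24 genes and rose in none in AhR-/- against WT HDM libraries, with a median of -2.41, beside 12.9% of all genes lower and 9.22% higher. These calls, like those of the members, were lost without AhR-/- HDM replicate 1, 3 or 4 or WT HDM replicate 3 or 4, where no gene was called. Its summed level was 2521 to 7749 CPM in WT, 304 to 1595 CPM in AhR-/- and 470 to 7712 CPM in CYP1B1-/- HDM libraries, and 128 to 464 CPM at steady state. Across the 12 HDM libraries, the log2 summed level of the members had a Pearson r of 0.987 with that of this list, 0.816 with myeloid, 0.758 with B lineage and 0.407 with T and NK cell markers. With epithelial markers r was -0.664, with alveolar type 1 -0.767, with club and goblet -0.776, with ciliated -0.761 and with alveolar type 2 markers -0.264. At steady state, over 10 libraries, r was -0.157 with the hematopoietic list, 0.178 with myeloid, -0.431 with B lineage, -0.643 with T and NK cell, 0.585 with epithelial, 0.865 with alveolar type 1, 0.337 with club and goblet, 0.887 with ciliated and 0.151 with alveolar type 2 markers. The 4 highest members made up 43.3% to 54.9% of the summed level there and 24% to 38.5% after HDM. The libraries share genotype and run, so these are descriptions. Alveolar type 1 markers summed to 739 to 5240 CPM in WT and 3669 to 22360 CPM in AhR-/- HDM libraries, epithelial markers to 538 to 948 and 892 to 1094 CPM. In AhR-/- HDM libraries, 4 of 15 myeloid, 1 of 12 T and NK cell and 1 of 7 endothelial markers fell, and 1 of 8 alveolar type 1, 2 of 8 club and goblet, 3 of 8 ciliated and 2 of 8 epithelial markers rose. Of 6 basal and neuroendocrine markers 3 rose and 1 fell, and none of the B lineage, alveolar type 2 and mesenchymal markers passed. With lists this short, counts of 1 are near the shares of all genes. No list had a marker at 0 in every HDM library of a group. The part of these cell types in the members' differences was not tested.

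Other genes of the same processes were counted in the same fit, where 12.9% of all genes were lower and 9.22% higher, and where no gene of the whole table was called without AhR-/- HDM replicate 1, 3 or 4 or WT HDM replicate 3 or 4. In AhR-/- against WT HDM libraries, 32 of 44 other replication genes were lower and none higher (median -1.65), with Mcm10, an initiation factor (-2.64, SE 0.49), Pold1, the lagging-strand polymerase (-1.86, SE 0.35), and Clspn, a fork checkpoint adaptor (-2.07, SE 0.41) at the lowest p-values (adjusted p = 0.0261 for all 3, edgeR's quasi-likelihood test). Of 60 other mitosis genes 50 were lower (median -2.04), including the mitotic kinesins Kif18b (-3.14, SE 0.55), Kif4 (-2.84, SE 0.51) and Sgo1, the protector of centromere cohesion (-2.31, SE 0.43). The 1 that was higher was Pttg1, the separase inhibitor (1.42, SE 0.32). The G1 cyclins, kinases and brakes were mixed, with 6 of 28 lower and 3 higher (median -0.61), the latter near the share of all genes. Lower were, among others, Ccnd3, a D cyclin (-1.98, SE 0.43), E2f7, the partner of E2f8 (-2.25, SE 0.51), and Cdkn1a, the p21 inhibitor (-1.39, SE 0.45), and higher were Cdkn2b, the p15 inhibitor (1.78, SE 0.57), Lin52 of the MuvB complex (1.44, SE 0.38) and E2f5, a repressive E2F (0.86, SE 0.22). Following Ptprc after HDM were 35 of 44 replication, 44 of 60 mitosis and 6 of 28 G1 genes, beside 13.1% of all genes.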

How the data were processed

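RNA of sorted lung ECs was sequenced from oligo-dT primed, amplified cDNA. The authors removed adapters with bbduk and used GSNAP against mm10, with featureCounts 2.0.0 and the Ensembl annotation for counting (bcl2fastq 2.19.1 is in the submitters' processing notes). The deposited values are raw read counts per gene, without normalization, in 2 tables named run 1 (steady state) and run 2 (HDM). Strand and multimapping settings are not given in the sources used here. The labels and methods give the gate as CD45-EpCAM+, and the study also describes the cells as CD31-.

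The members and lists were chosen with earlier results of these data known. Protein-coding genes were taken from GENCODE M21, which matched 54147 of 54373 identifiers. The filterByExpr settings of edgeR 4.0.16 (R 4.3.3) were a minimum count of 10 and a total of 15. After TMM normalization, glmQLFit (robust) and glmQLFTest were run with the 3 genotypes of each state fitted jointly. Interactions, state differences and CPM levels used all 22 libraries. Benjamini-Hochberg adjustment ran over all genes tested, with a threshold of 0.05. The standard error was taken as |log2 fold change| over the square root of F, and log2 CPM used a prior count of 1. Slopes were fitted on log2 CPM of Ptprc or Epcam with genotype as a term. Precision is limited by library depth (9654825 to 17878442 counts, of which 1180756 to 16447855 were in protein-coding genes outside the dominant predicted ones), and floors of 3 counts cover counting error only.

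Named are the 2 members of highest CPM per kb in each of 10 roles, Mki67, Top2a, Cdk1, Ccnb1, Foxm1, Iqgap3 and the 5 of lowest p per comparison. Members named as exceptions, with small values or for uncertain counts, and Pttg1, were chosen after their values were seen. Alternatives were RLE size factors, no filter, the likelihood ratio test, DESeq2 1.42.0, limma 3.58.1 voom with sample weights, all genes, no dominant predicted genes, a block on replicate number, the compared groups only, no genotype term, a marker-list mean as covariate, and libraries left out. Scripts were tested on simulated data.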

Additional observations from a re-analysis of the deposited data

Results flagged for a closer look

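The sets screened were those of the named members, Ptprc, Epcam and the members' sum, each in a group of 4 libraries on the log2 CPM scale. Among these 128 sets, 1 library stood apart from the other 3, and chance alone gives about 1 in 20, or 6.4 sets. It was WT steady state replicate 1 for Foxm1, the factor of mitotic gene transcription, at -0.05 log2 CPM (-0.05082) against -0.42 to -0.39 in the other 3 libraries. All 4 values lie below 1 CPM.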

How the results depend on the processing

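Of the values of named members in AhR-/- against WT after HDM under the alternatives, 402 kept their direction and their side of the threshold, 232 lost the threshold, 3 gained it and 1 turned direction. For slopes on Ptprc after HDM these were 609, 19, 8 and 2. For HDM against steady state 210 kept both and 0 lost the threshold in WT, and 196 kept both and 14 lost it in AhR-/-. The WT values include those of Ccnb1, which entered that fit through the HDM libraries. The values that turned direction were E2f1 in AhR-/- against WT HDM libraries (-0.16) and on Ptprc (0.0286), both without AhR-/- HDM replicates 3 and 4, and Pole on Ptprc without CYP1B1-/- HDM replicate 2 (-0.0770, with a range of -0.0770 to 0.268 over single libraries left out). None of the 3 was called. The cause was not tested.

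Members called in AhR-/- against WT after HDM numbered 0 without AhR-/- HDM replicates 3 and 4. They numbered 0 with the replicate number as a block (0.00706% of all genes, with 45 members at an unadjusted p under 0.05 beside 37.9% of all genes, median -2.14). Under the other settings on all libraries they numbered 37 to 46. The shares of all genes for that range are not given here, so it has no background beside it. Same-numbered libraries correlated over 0.1 in 4 of 12 HDM pairs (-0.4686 to 0.6724) and 4 of 8 steady-state pairs (-0.02053 to 0.2432). Differently numbered libraries did so in 18 of 36 HDM pairs (-0.6667 to 0.5183) and 4 of 25 steady-state pairs (-0.272 to 0.2425). Whether libraries of the same number shared a batch was not tested. The block called 0 members in the other genotype comparisons too. AhR-/- against CYP1B1-/- after HDM gave 43 with the likelihood ratio test, 44 with DESeq2 and 31 with voom. The AhR-/- interaction gave 7, 26 and 45 in the same order, and the shares of all genes for both are given above. HDM against steady state in AhR-/- gave 12 with voom, for which the share of all genes is not given here. The interaction and state counts include Ccne1, Ccnb1, E2f8 and Plk1, which entered the fit through the HDM libraries. Members following Epcam after HDM (share of all genes in brackets) numbered 3 with RLE (5.4%), 28 without filter (4.29%), 24 with the likelihood ratio test (9.6%), 24 with DESeq2 (12.7%), 5 with voom (6.3%), 6 without dominant genes (3.14%), 46 without a genotype term (32.7%), 2 with the list mean (3.4%) and 0 without AhR-/- HDM replicates 3 and 4 (0%). At steady state they numbered 0 with voom (0%), 2 without dominant genes (18.4%), 5 without a genotype term (22.7%) and 0 with the list mean (0%).

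With single libraries left out, counts of members are given with the range of genes called in the whole table in brackets. After HDM they were 0 to 46 for AhR-/- against WT (0 to 4137) and 0 to 44 for AhR-/- against CYP1B1-/- (0 to 3098). Members following Ptprc after HDM numbered 27 to 43 (726 to 2211) and those following Epcam 0 to 21 (0 to 887). At steady state those following Epcam numbered 0 to 8 (0 to 5204). The AhR-/- interaction gave 0 to 11 (0 to 1017) and HDM against steady state in AhR-/- 12 to 35 (1532 to 3995). These interaction and state counts include Ccne1, Ccnb1, E2f8 and Plk1, which entered the fit through the HDM libraries. The depth of AhR-/- HDM replicate 3 limits its values, with 2 members at 0 counts. RLE size factors moved the median log2 fold change of all genes in AhR-/- against WT after HDM from 0.00 to 0.05.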
